A study of Mus musculus with 8 samples.

Results

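The genes described here are 9 that encode the ion channels and calcium pumps through which glucose drives insulin release. They are Kcnj11 and Abcc8, which form the ATP-sensitive potassium channel, the calcium channel genes Cacna1c and Cacna1d, the cation channel gene Trpm5, the exchanger gene Slc8a1, the endoplasmic reticulum pump genes Atp2a2 and Atp2a3, and the calcium release channel gene Ryr2. They were chosen by name, out of 30406 gene IDs found in every library, and their raw UMIs (unique molecular identifiers, each standing for 1 captured transcript) were summed per library over β-, α- and δ-cells. Of the 9, 8 were tested in β-cells and 7 in α- and δ-cells, and Ryr2 was too low for a test in any of them.

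Islets came from male mice of 12 to 16 weeks, C57BL/6 in the sample labels and C57BL6/J in the methods of the study, pooled from 10 animals in each of 2 replicates, and each pool was divided over 4 conditions, which gave 8 single-cell libraries. The islets were kept for 18 h without treatment, with a pair of cytokines (IL-1β at 10 U/mL, IFN-γ at 150 U/mL), with the same cytokines and 2 mM NMMA, or with 2 mM NMMA alone. NMMA (NG-monomethyl-L-arginine) inhibits nitric oxide synthases, and these cytokines together lead mouse β-cells to make nitric oxide. The islets were whole during the exposure, so every cell type met the treatment together with its neighbours.

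In a resting β-cell the ATP-sensitive potassium channel is open and holds the membrane negative. ATP made from glucose closes the channel, the membrane depolarizes, voltage-gated calcium channels open and the calcium that enters triggers the release of insulin granules. Pumps of the SERCA family then return calcium to the endoplasmic reticulum, exchangers and pumps of the plasma membrane carry it out of the cell, and α- and δ-cells use many of the same channels to release glucagon and somatostatin.

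The libraries held 26549922 to 50731370 UMIs, and 10876 of 17426 barcodes passed the filters on genes and mitochondrial reads. Clusters, made without the channel and calcium genes among the variable genes, were named from marker genes, which gave 6314 β-, 654 α- and 334 δ-cells. A further 1220 cells stayed unnamed and were in none of these sums. The largest unnamed group was cluster 5 of the first round, with 792 cells and Gbp6, Iigp1 and Nos2 among its top genes. Its cells had few UMIs (median 0.0897 times that of their library). It took 488 cells from cytokines and NMMA replicate 2 and 231 from cytokines replicate 2. In replicate 1 it took 42 with cytokines and NMMA and 18 with cytokines. The untreated replicates gave 1 and 4, and NMMA replicate 2 gave 8. The unnamed cells also include clusters 2 (170 cells) and 9 (93 cells) of a second round, with Ins1 and Ins2 among their top genes. Cluster 2 took 114 cells from NMMA replicate 2, 53 from untreated replicate 2 and 0 from any library with cytokines. Cluster 9 took 79 from untreated replicate 1, 11 from NMMA replicate 1 and 1 from cytokines replicate 1. What leaving them out did to the comparisons was not tested. Totals of the sums ran from 11495587 to 34959533 UMIs in β-cells, 825487 to 2108456 in α-cells and 116823 to 960019 in δ-cells. The δ class also held Ppy, the pancreatic polypeptide gene, at 8363 to 52400 raw CPM (UMIs of a gene over all UMIs of the sum, scaled to CPM and with no TMM factor) beside Sst at 26970 to 90530, and whether these came from the same cells was not tested. With cytokines alone it had 8 cells in replicate 1, too few for a sum, and 12 in replicate 2, so this group is 1 library there. In bulk sums like these, fewer cells with a transcript and less transcript per cell cannot be told apart.

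Kcnj11 (chr7:46093953-46100764) and Abcc8 (chr7:46104523-46180033) are neighbours on the minus strand of mouse chromosome 7, 3758 bases apart in the GRCm38 annotation. Trpm5 (chr7:143069153-143094642) lies on the same chromosome. Cacna1d spans 451.5 kb (chr14:30039939-30491455), Atp2a2 48.7 kb (chr5:122453513-122502225) and Atp2a3 31.9 kb (chr11:72961169-72993044). Cacna1c (chr6:118587240-119196418), Slc8a1 (chr17:81373105-81738377) and Ryr2 (chr13:11553102-12106945) make up the rest. All 9 are protein-coding, and the assay reads their 3′ ends, so the counts do not say which start site was used.

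Of the 4 genes that fell in β-cells with cytokines, 3 have an entry among the RefSeq promoters (build GRCm38.p6), and the 250 bases before the start of each are shown because these genes fell together. Kcnj11, Abcc8 and Atp2a2 have none. Letters run 5′ to 3′ on the strand of the gene. Capitals mark matches, on either strand and overlaps included, to the GC box GGGCGG, the STAT motif TTCNNNGAA, or the NF-κB motif (GGG, any 2 bases, TTTCC).
Trpm5 (chr7:143094643-143094892, minus strand): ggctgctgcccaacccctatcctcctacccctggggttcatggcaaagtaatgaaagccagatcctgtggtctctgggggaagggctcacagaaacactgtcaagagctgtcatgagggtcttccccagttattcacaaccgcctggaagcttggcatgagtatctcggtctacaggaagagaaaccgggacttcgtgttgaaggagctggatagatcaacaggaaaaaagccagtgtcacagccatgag
Cacna1d (chr14:30353487-30353736, minus strand, the window of this gene that overlaps no annotated exon): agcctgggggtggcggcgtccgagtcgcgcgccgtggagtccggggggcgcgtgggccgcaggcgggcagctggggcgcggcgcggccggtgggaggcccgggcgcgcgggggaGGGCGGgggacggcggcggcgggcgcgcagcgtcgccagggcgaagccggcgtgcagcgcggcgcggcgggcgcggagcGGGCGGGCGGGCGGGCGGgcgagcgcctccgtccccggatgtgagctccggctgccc
Atp2a3 (chr11:72960919-72961168, plus strand): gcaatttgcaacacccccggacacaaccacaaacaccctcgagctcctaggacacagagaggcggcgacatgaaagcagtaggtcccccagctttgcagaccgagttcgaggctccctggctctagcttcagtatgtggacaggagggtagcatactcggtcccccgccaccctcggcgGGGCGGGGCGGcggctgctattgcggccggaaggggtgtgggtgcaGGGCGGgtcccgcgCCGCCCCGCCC
Every match in them is a GC box, of which the Cacna1d and Atp2a3 windows hold 5 each and the Trpm5 window 0. Over 32851 promoters of the same length, 32.7% hold a GC box, 7.02% the STAT motif and 1.41% the NF-κB motif. Their GC content was 52.8% for Trpm5, 66.8% for Atp2a3 and 86.4% for Cacna1d, beside a median of 52.4% over the 32851 promoters. The other Cacna1d window (chr14:30491157-30491406), which overlaps an annotated exon, has 39.6% GC and holds 0 matches. Such matches are of letters only and say nothing of binding.

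To ask how cytokines altered the secretory machinery of β-cells, the sums were compared between conditions with edgeR's quasi-likelihood test, and a gene is said to have risen or fallen where the Benjamini-Hochberg adjusted p over all genes tested was under 0.05. Levels are given as normalised CPM, that is CPM after TMM scaling. With cytokines 4 of the 8 genes tested fell in β-cells, namely Cacna1d, Trpm5, Atp2a2 and Atp2a3, and 0 rose. Of all 12779 genes tested, 22.5% fell, 23.7% rose and 46.1% changed in either direction, so the 4 of 8 that changed are near the share of all genes that did. Cacna1d was 2.78-fold lower, Atp2a3 1.99-fold, Atp2a2 1.97-fold and Trpm5 1.89-fold. They fell in both replicates, and each kept an adjusted p under 0.05 under 17 of 17 alternative settings. With the replicate number as a block Abcc8 fell too (-0.53, edgeR adjusted p = 0.00201), in a fit that called 62.8% of all genes. DESeq2 also called Abcc8 (-0.51, adjusted p = 0.0298), where it called 39.2% of all genes. The β-cells compared lay mostly in different clusters, which also split by replicate: untreated cells mainly in clusters 0 and 7 (replicate 1) or 2 (replicate 2), and cells with cytokines mainly in clusters 3 and 6 (replicate 1) or 4 (replicate 2).

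**Figure D1:**
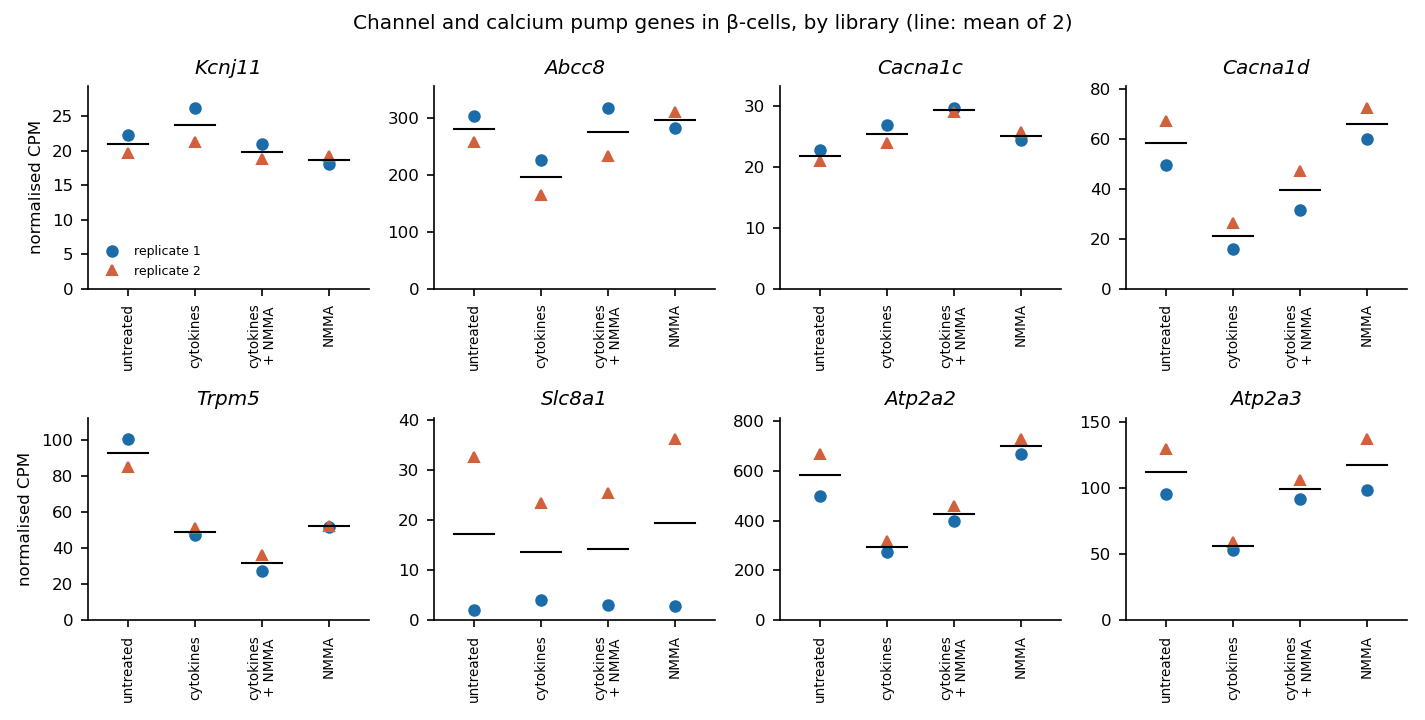
Normalised CPM of 8 genes in the β-cell sums, with the 4 conditions on the x axis, a circle for replicate 1, a triangle for replicate 2 and a line at their mean. Cacna1d, Trpm5, Atp2a2 and Atp2a3 sit lower with cytokines in both replicates, Trpm5 is also low with NMMA alone, and the Slc8a1 replicates stand far apart in every condition.

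Kcnj11 encodes the pore of the ATP-sensitive potassium channel. It stood at 22.4 and 19.7 normalised CPM in the untreated β-cell libraries, 26.3 and 21.3 with cytokines, 20.9 and 18.8 with cytokines and NMMA, and 18.1 and 19.3 with NMMA alone. The untreated libraries overlapped with those of both cytokine conditions and lay just above those with NMMA alone, and no comparison passed the test. The log2 fold change with cytokines was 0.18 (SE 0.15, n = 2 against 2, edgeR adjusted p = 0.348), and it was -0.04 under scaling by total UMIs.

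Abcc8 encodes the sulfonylurea receptor, the regulatory subunit of the same channel and the target of the sulfonylurea drugs. Its normalised CPM was 302 and 257 in untreated β-cells, 226 and 164 with cytokines, 317 and 233 with cytokines and NMMA, and 282 and 310.5 with NMMA alone. Both cytokine libraries were below both untreated ones, and of those with NMMA added, 1 was above and 1 below both untreated ones. The log2 fold change with cytokines was -0.52 (SE 0.20), with an edgeR adjusted p of 0.0637, and it was -0.53 with an adjusted p of 0.00201 once the replicate number was a block. It was called under 5 of 17 alternatives. Besides the block they were DESeq2 (-0.51, adjusted p = 0.0298) and no filter on low counts (-0.55, adjusted p = 0.0196). The others were leaving out cytokines replicate 1 (-0.77, adjusted p = 0.0385) and scaling by total UMIs (-0.74, adjusted p = 0.0138). The difference with NMMA measured 0.50 (SE 0.20, edgeR adjusted p = 0.119), and 0.50 with an adjusted p of 0.00562 in the blocked fit, and 0.71 with an adjusted p of 0.0337 by total UMIs. The libraries of a replicate number came from 1 pool, and the blocked fit called 62.8% of all genes with cytokines. Whether Kcnj11 and Abcc8 differed from each other in their change was not tested.

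Cacna1d and Cacna1c encode the pore-forming subunits of the L-type calcium channels Cav1.3 and Cav1.2, the main gates for calcium entry in a stimulated β-cell. Cacna1d was at 49.5 and 67.4 normalised CPM in untreated β-cells, 15.8 and 26.4 with cytokines, 31.5 and 47.3 with cytokines and NMMA, and 59.9 and 72.5 with NMMA alone. The cytokine libraries lay below every other library, and those with NMMA added were between. Cacna1d fell with cytokines by 1.47 on the log2 scale (SE 0.30, edgeR adjusted p = 0.00535), the largest fall among the 8. With NMMA added to cytokines it stood 0.90 above cytokines alone (SE 0.30, edgeR adjusted p = 0.0702) and 0.57 below untreated, on the log2 scale (log2 fold change -0.57, SE 0.29, adjusted p = 0.208). With the replicate block these became 0.91 (adjusted p = 8.94e-06) and -0.58 (adjusted p = 0.000278), and both were then called. The first was called under 4 of 17 alternatives. Besides the block they were DESeq2 (0.90, adjusted p = 0.0066), no filter on low counts (0.91, adjusted p = 6.96e-06) and leaving out cytokines replicate 2 (1.30). The second was called under 2 of 17, the block and no filter (-0.60, adjusted p = 0.00359).

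Cacna1c showed another pattern. Its normalised CPM was 22.7 and 20.9 in untreated β-cells, 26.8 and 23.8 with cytokines, 29.7 and 28.9 with cytokines and NMMA, and 24.4 and 25.6 with NMMA alone. The 2 libraries with cytokines and NMMA were the highest of the 8, and the untreated ones the lowest. The log2 change with cytokines was 0.21 (SE 0.12, edgeR adjusted p = 0.187) by TMM and -0.01 under scaling by total UMIs. Cacna1c rose with cytokines and NMMA against untreated by 0.42 (SE 0.12, edgeR adjusted p = 0.0369), a call that was lost when any 1 of the NMMA, untreated or cytokines and NMMA libraries was left out (0.33 to 0.48, adjusted p from 0.0557 to 0.206), and under total scaling (0.41, adjusted p = 0.0569).

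Trpm5 encodes a cation channel, opened by calcium, that adds to the depolarization of the β-cell and is also known from taste cells. It was at 100.2 and 84.6 normalised CPM in untreated β-cells, 47.2 and 50.9 with cytokines, 27.4 and 36.4 with cytokines and NMMA, and 51.9 and 52.3 with NMMA alone. All 6 treated libraries were below both untreated ones, and the pair that had cytokines and NMMA together was the lowest. Trpm5 fell with cytokines by 0.91 on the log2 scale (SE 0.16, edgeR adjusted p = 0.00162) and with cytokines and NMMA by 1.54 (SE 0.16, edgeR adjusted p = 0.00019).

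Trpm5 was the one gene of the 8 that stood lower, not higher, when NMMA was added to cytokines and passed the test. It fell by 0.62 (SE 0.16, edgeR adjusted p = 0.0261), which was lost without cytokines replicate 1 (-0.68, adjusted p = 0.0808), cytokines replicate 2 (-0.58, 0.0776) or replicate 1 of cytokines and NMMA (-0.44, 0.148), and under total scaling (-0.41, 0.102). With NMMA alone the log2 change was -0.83 (SE 0.16), with an edgeR unadjusted p of 0.000471 and an adjusted p of 0.337. In that comparison edgeR called 0 of 12779 genes, with 924 at an unadjusted p under 0.05, and DESeq2 called 15 of 4355. Trpm5 was among those of DESeq2 (-0.82, adjusted p = 0.0106) and among the 3.48% called by edgeR with the replicate block (-0.83, adjusted p = 0.00245). No other gene of the 9 was called with NMMA alone in β-cells by edgeR, with or without the block.

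**Figure D2:**
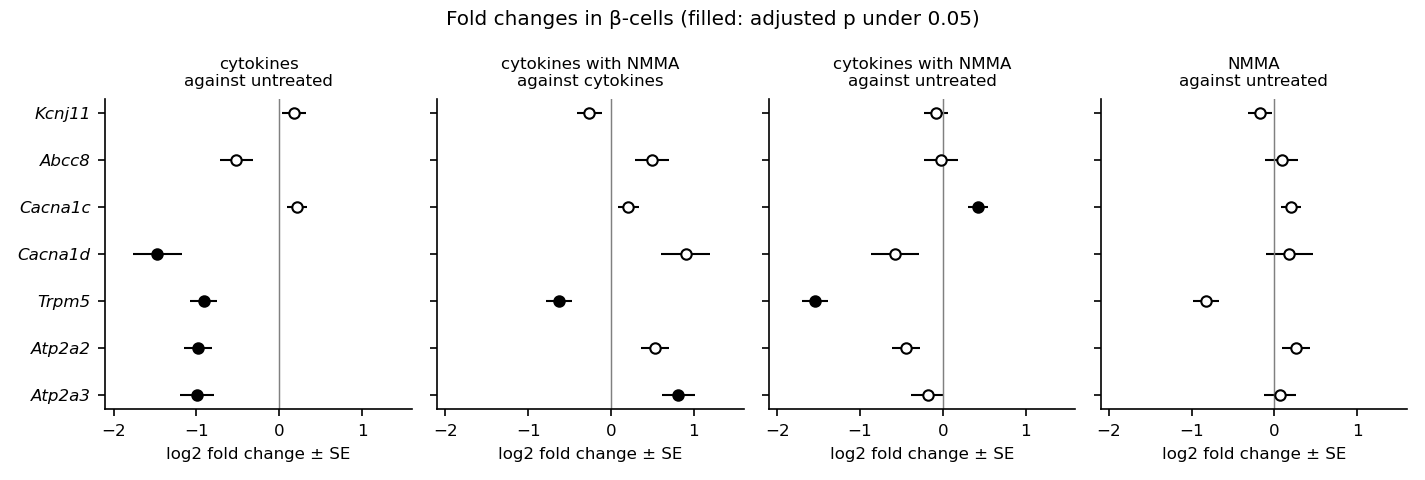
Log2 fold changes with their standard errors on the x axis for 7 genes in β-cells, with a panel for each of the 4 comparisons and filled points where the edgeR adjusted p was under 0.05. Trpm5 is left of 0 in every panel, while Cacna1d, Atp2a2 and Atp2a3 lie left of 0 with cytokines and right of 0 when NMMA was added to them.

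Atp2a2 and Atp2a3 encode SERCA2 and SERCA3, the pumps that load calcium into the endoplasmic reticulum. Atp2a2 was at 499.6 and 666 normalised CPM in untreated β-cells, 275 and 317 with cytokines, 399 and 457 with cytokines and NMMA, and 669 and 727 with NMMA alone. The conditions came in the same order in both replicates and the cytokine libraries overlapped with none of the others. Atp2a2 fell with cytokines by 0.98 on the log2 scale (SE 0.17, edgeR adjusted p = 0.00182). With NMMA added it stood 0.53 above cytokines alone (SE 0.17, edgeR adjusted p = 0.057). That difference was called under 4 of 17 alternatives. They were the replicate block (adjusted p = 0.000148), DESeq2 (0.0204), total UMIs (0.0209) and no filter on low counts (0.0395). Against untreated the change was -0.45 (SE 0.17, edgeR adjusted p = 0.094), called only with the block (-0.44, adjusted p = 0.000727).

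Atp2a3 had 95.4 and 129 normalised CPM in untreated β-cells, 53.4 and 59.4 with cytokines, 91.9 and 106 with cytokines and NMMA, and 98.4 and 137 with NMMA alone. Only the cytokine libraries were apart from the rest. Atp2a3 fell with cytokines by 0.99 on the log2 scale (SE 0.20, edgeR adjusted p = 0.00367) and rose by 0.81 when NMMA was added to them (SE 0.20, edgeR adjusted p = 0.0236), which left it -0.18 from untreated (SE 0.20, adjusted p = 0.572). The rise was not called when any 1 of the 4 libraries compared was left out, with values of 0.70 to 0.90 and adjusted p from 0.0578 to 0.132.

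With NMMA added to cytokines, 2 of the 8 genes were thus called in β-cells, Atp2a3 higher and Trpm5 lower, where 10.4% of all genes were higher and 9.03% lower. The blocked fit called 5 of 8, with Abcc8, Cacna1d, Atp2a2 and Atp2a3 higher and Trpm5 lower, where it called 40.7% of all genes. Against untreated, 2 of 8 were called with cytokines and NMMA, Cacna1c and Trpm5, where 12.9% of all genes were higher, 9.7% lower and 22.6% either, and 4 of 8 with the block, where 40.9% were. As shares of the fall that cytokines brought to the mean normalised CPM, the mean with NMMA added was back by 76.2% for Atp2a3, 48.9% for Cacna1d and 46.1% for Atp2a2, and for Trpm5 it went further down (-39.6%). Comparisons with untreated and with cytokines share libraries, so these shares carry no test.

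Slc8a1 encodes NCX1, the sodium-calcium exchanger of the plasma membrane. Its values split by replicate and not by condition. In β-cells it was at 1.99 and 32.5 normalised CPM untreated, 4.03 and 23.4 with cytokines, 3.05 and 25.3 with cytokines and NMMA, and 2.86 and 36.1 with NMMA alone. Replicate 2 held 5.82 to 17.01 times the raw CPM of replicate 1 in β-cells, 3.15 to 20.41 times in α-cells and 5.27 to 10.2 times in δ-cells, while the other genes of the list that were tested lay between 0.73 and 1.68 times in β-cells. The replicates were counted with Cell Ranger 3.0.0 and 6.0.0 on gene lists of 31053 and 32285 entries, and the part of that difference in the gap was not tested. The SE of the log2 change with cytokines was 2.08, so the comparison says nothing of Slc8a1 at this spread (log2 fold change -0.33, edgeR adjusted p = 0.917).

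Ryr2 encodes the ryanodine receptor known from heart muscle, which releases calcium from the endoplasmic reticulum. It had 2 UMIs among 161048239 in all β-cells, or 0.0124 raw CPM, and 0 in α-, δ-, endothelial, macrophage and mesenchymal cells. A count of 0 allows up to 0.263 raw CPM in α-cells and 0.602 in δ-cells. A change of Ryr2 with treatment was not detectable at this depth.

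The share of β-cells with a UMI moved with the sums. When every β-cell was thinned to 10000 UMIs, 57.0% of untreated β-cells of replicate 1 had Trpm5 (exact 95% interval 54.5 to 59.4) and 50.7% of replicate 2 (46.3 to 55.1). With cytokines the shares were 30.9% and 30.4%, with cytokines and NMMA 22.8% and 26.4%, and with NMMA alone 34.6% and 36.7%. The intervals of the untreated libraries touched none of the others, and those intervals cover counting error only. For Cacna1d the shares were 39.2% and 49.1% untreated against 13.6% and 23.3% with cytokines, and for Atp2a3 61.2% and 65.2% against 35.3% and 36.5%. Kcnj11 kept between 16.01% and 20.7% in every library. Without thinning, the untreated shares were 73.8% and 68.5% for Trpm5 and 62.5% and 73.4% for Cacna1d, and 10 to 94 cells per library were too shallow to be thinned. At 2500 UMIs a cell, Trpm5 was in 21.4% and 19.1% of untreated β-cells and in 0 of 47 and 0 of 49 untreated endothelial cells, which should lack it and whose median depths were 9702 and 12940 UMIs against 20430 and 25340.

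**Figure D3:**
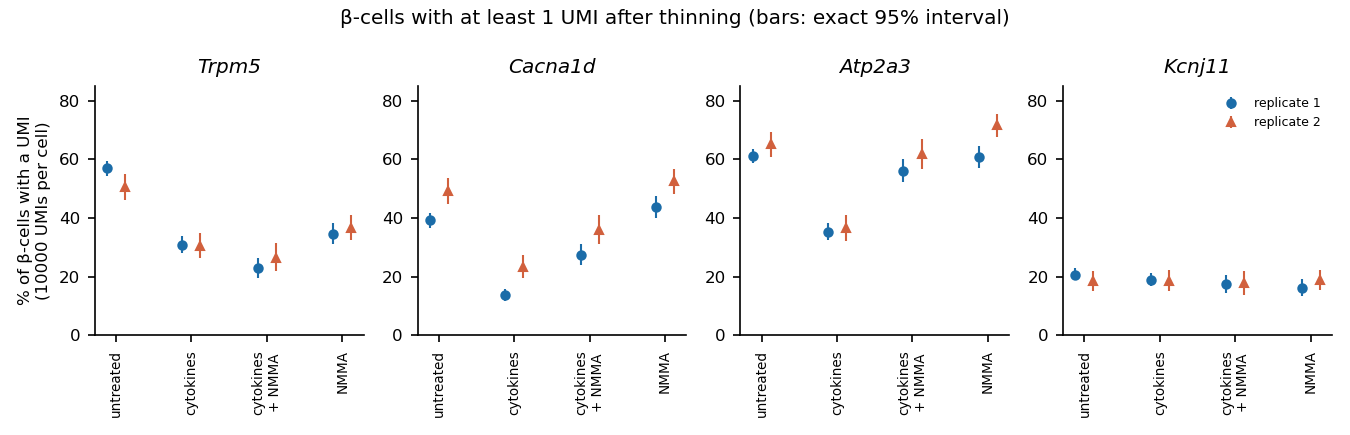
Share of β-cells in which a gene was detected (1 UMI or more) after thinning to 10000 UMIs per cell, in %, by condition on the x axis and replicate by colour, with exact 95% intervals. Trpm5 is highest in untreated cells, Cacna1d and Atp2a3 are lowest with cytokines, and Kcnj11 stays between 16.01% and 20.7%.

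Other values moved with cytokines in the β-cell sums. The summed raw CPM of 8 macrophage markers were 46.7 to 71.0 untreated, 67.5 to 123 with cytokines, 91.8 to 188 with cytokines and NMMA, and 38.5 to 44.0 with NMMA alone. The summed ductal markers, which include keratins, were 264 to 320 raw CPM untreated and 813.5 to 969 with cytokines. The median mitochondrial share of β-cells was 4.79% and 4.27% untreated and 3.62% and 3.21% with cytokines. Scaling by total UMIs in place of TMM moved the median log2 change of all genes with cytokines by -0.22, and the 4 genes that fell stayed called. In the β-cell sum of cytokines replicate 2, α-cell markers stood at 4101 raw CPM and δ-cell markers at 416.8, beside 264 and 75.0 in replicate 1 and 454 to 725 and 64.2 to 78.9 in the untreated sums. Without that library Cacna1d (-1.87), Atp2a2 (-1.07), Atp2a3 (-1.06) and Trpm5 (-0.96) stayed called. The part of the other values in the results was not tested.

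In α-cells, the glucagon cells, 1 of the 7 genes tested fell with cytokines, where 21.8% of 9764 genes were called, 12.9% higher and 8.85% lower. The α-cells compared also lay in different clusters of the second round, with untreated cells mainly in clusters 4 (87 cells of replicate 1) and 1 (91 of replicate 2), those with cytokines mainly in cluster 3 (49 and 56 cells), led by heat shock genes, and those with cytokines and NMMA mainly in cluster 0 (85 and 92). The gene that fell was Abcc8, which was at 379 and 359 normalised CPM untreated, 256 and 161 with cytokines, 377 and 287 with cytokines and NMMA, and 448.5 and 350.3 with NMMA alone. Its cytokine libraries were the 2 lowest of the 8. Abcc8 fell by 0.83 on the log2 scale (SE 0.24, edgeR adjusted p = 0.0177), and the call was lost without cytokines replicate 2 (-0.53, adjusted p = 0.163), untreated replicate 1 (-0.80, 0.0909) or untreated replicate 2 (-0.87, 0.0635). The blocked fit added Cacna1d, with 28.1 and 55.1 normalised CPM untreated and 9.41 and 25.3 with cytokines (log2 fold change -1.21, adjusted p = 0.000852), in a fit that called 29.6% of all genes.

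Atp2a2 was not called in α-cells, at 166 and 194 normalised CPM untreated and 154 and 180 with cytokines (log2 fold change -0.11, SE 0.22, edgeR adjusted p = 0.78), though under total scaling the change was -0.57 (adjusted p = 0.0575). Atp2a3 was at 35.1 and 33.1 untreated, 29.8 and 23.6 with cytokines, 48.7 and 57.4 with cytokines and NMMA, and 33.4 and 50.2 with NMMA alone. It rose when NMMA was added to cytokines by 1.02 (SE 0.27, edgeR adjusted p = 0.0184), the only one of 7 in a comparison that called 11.1% of all genes, 5.48% higher and 5.61% lower, and the call was lost without cytokines replicate 2 (0.84, 0.141) or replicate 2 of cytokines and NMMA (0.90, 0.123). With the block, Abcc8 (0.70, adjusted p = 0.00144) and Cacna1d (1.07, adjusted p = 0.00495) rose as well, where 19.4% of all genes were called, and Atp2a3 stood 0.65 above untreated with cytokines and NMMA (adjusted p = 0.0314, 13.8% of all genes), where the fit without the block called 0 of 7 and 8.5% of all genes, 6.24% higher and 2.26% lower. NMMA alone gave 0 calls of 7 and of 9764 genes by edgeR, with 353 at an unadjusted p under 0.05, and 0 by DESeq2. Ins2, the insulin gene, was at 11790 and 13400 raw CPM in the untreated α-cell sums, 35990 and 36140 with cytokines, and 12410 and 40110 with cytokines and NMMA, and its part in these values was not tested.

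In the δ class, untreated cells lay mainly in the second-round clusters 5 (replicate 1) and 8 (replicate 2) and those of both cytokine conditions mainly in cluster 7. Markers of other cell types differed between these sums. Polypeptide cell markers summed to 98150 and 121500 raw CPM untreated, 26600 in the library with cytokines, and 46750 and 66860 with cytokines and NMMA. The α-cell markers summed to 9863 and 36240 untreated, 7994 with cytokines, and 5368 and 332 with cytokines and NMMA, and the part of both lists in the δ values was not tested. Abcc8 was at 624 and 484 normalised CPM untreated, 166 in the 1 library with cytokines, 357 and 289 with cytokines and NMMA, and 683 and 486 with NMMA alone. The value with cytokines was the lowest and those with NMMA added came next. Abcc8 fell with cytokines by 1.74 (SE 0.34, edgeR adjusted p = 0.00232), where 6.33% of 9557 genes were called, 4.54% higher and 1.79% lower, and this rests on a sum of 12 cells and 35 UMIs of Abcc8 that is assumed to vary like the other groups. It was the 1 gene of 7 called there. With cytokines and NMMA it was below untreated by 0.78 on the log2 scale (log2 fold change -0.78, SE 0.24, edgeR adjusted p = 0.0444). Kcnj11 was at 55.7 and 56.2 normalised CPM untreated and at 27.6 in both libraries with cytokines and NMMA, and fell by 1.01 (SE 0.29, edgeR adjusted p = 0.0304). These 2 of 7 were called where 8.86% of all genes were, 6.23% higher and 2.64% lower, and both calls were lost when any 1 of the 4 libraries compared was left out, with adjusted p of 0.0675 to 0.369. Total scaling also ended them (adjusted p = 0.0687 for Abcc8 and 0.0552 for Kcnj11). NMMA alone, and NMMA added to cytokines, gave 0 calls of 7, with 0 and 2.68% of all genes called (1.05% higher and 1.63% lower in the latter), 270 genes at an unadjusted p under 0.05 with NMMA alone, and 0 members by DESeq2 in both. The blocked fit called Slc8a1 lower with cytokines and NMMA than with cytokines (-1.98, adjusted p = 0.013, 5.04% of all genes) and than untreated (-1.48, adjusted p = 0.00812, 15.7%), on 3 and 12 UMIs with cytokines and NMMA.

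The classes were also compared with each other in untreated islets, where the pump genes and Trpm5 marked β-cells while the channel genes Kcnj11 and Abcc8 did not. Levels here are raw CPM, and the fits had the library as a block. Trpm5 was at 102 and 89.98 raw CPM in untreated β-cells, 6.27 and 4.57 in α-cells, and 3.12 and 5.49 in δ-cells. These come from 8 UMIs in each untreated α-cell library and 3 and 4 in the δ-cell libraries. Trpm5 was higher in β-cells by 4.71 on the log2 scale against α-cells (SE 0.49, edgeR adjusted p = 0.000265) and by 5.20 against δ-cells (SE 0.31, edgeR adjusted p = 3.87e-61).

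Atp2a2 was at 510 and 709 raw CPM in β-cells, 186 and 212 in α-cells and 171 and 191 in δ-cells, and stood higher in β-cells on the log2 scale by 2.15 against α-cells (SE 0.14, adjusted p = 2.92e-19 by edgeR) and by 2.37 against δ-cells (SE 0.17, adjusted p = 1.23e-42 by edgeR). It was also in endothelial cells, at 132 and 150 raw CPM. Atp2a3 was at 97.4 and 137 in β-cells, 39.2 and 36.0 in α-cells and 38.5 and 56.2 in δ-cells, with log2 differences of 2.19 against α-cells (SE 0.16, adjusted p = 1.79e-17 by edgeR) and 1.94 against δ-cells (SE 0.18, adjusted p = 3.42e-24 by edgeR). In untreated endothelial cells it was at 4.01 and 2.92 raw CPM. Both pump genes kept these calls under 17 of 17 alternatives.

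The untreated δ sums held polypeptide cell markers at 98150 and 121500 raw CPM beside δ-cell markers at 78250 and 56820, and their part in the δ values was not tested. Kcnj11 had its highest untreated level in the δ class, at 58.3 and 50.8 raw CPM, then α-cells, at 36.9 and 41.7, and its lowest in β-cells, at 22.8 and 20.9. It was lower in β- than in δ-cells by 0.67 on the log2 scale (log2 difference -0.67, SE 0.21, edgeR adjusted p = 0.00753). That call was lost without untreated replicate 1 (-0.79) or untreated replicate 2 (-0.59), and by DESeq2 (-0.75, adjusted p = 0.106). Between β- and α-cells Kcnj11 did not pass the edgeR test by TMM (-0.31, SE 0.18, adjusted p = 0.215) and did by total UMIs (-0.85, adjusted p = 0.000377). Abcc8 followed the same order, with 653 and 438 raw CPM in δ-cells, 424 and 391 in α-cells and 309 and 273 in β-cells. The outcome for Abcc8 turned with the scale too. By TMM the difference of β- from α-cells was 0.06 (SE 0.14, edgeR adjusted p = 0.789), and by total UMIs it was -0.49 (adjusted p = 0.00206), a scaling that moved the median of all genes by -0.54 in this comparison and by -0.64 against δ-cells. Against δ-cells Abcc8 was at -0.25 by TMM (SE 0.15, edgeR adjusted p = 0.254) and at -0.89 by total UMIs (adjusted p = 1.12e-09). Abcc8 was lower in α- than in δ-cells by 0.33 on the log2 scale (log2 difference -0.33, SE 0.11, edgeR adjusted p = 0.0398), the 1 gene of 7 called where 12.3% of all genes were, 4.85% higher and 7.45% lower, and it was not called without untreated replicate 1 (-0.17, adjusted p = 0.727), without NMMA replicate 1 (-0.32, 0.0525) or without either library with cytokines and NMMA (-0.32, 0.0702 and 0.0693).

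Cacna1d was at 50.6 and 71.7 raw CPM in β-cells, 31.4 and 60.0 in α-cells and 43.7 and 50.8 in δ-cells. By TMM it was higher in β-cells by 0.97 against α-cells (SE 0.17, edgeR adjusted p = 4.21e-06) and 0.99 against δ-cells (SE 0.19, edgeR adjusted p = 2.36e-06), and by total UMIs the differences were 0.43 (adjusted p = 0.0545) and 0.35 (adjusted p = 0.2), which were not called. Cacna1c was at 23.2 and 22.2 in β-cells, 22.7 and 21.7 in α-cells and 16.7 and 19.2 in δ-cells, with differences by TMM of 0.58 against α-cells (SE 0.21, adjusted p = 0.0298 by edgeR) and 1.01 against δ-cells (SE 0.27, adjusted p = 0.00177 by edgeR) that by total UMIs were 0.03 and 0.35. Those of Cacna1c were also lost without untreated replicate 1, at 0.53 and 0.70, and that against α-cells without untreated replicate 2 (0.66). By DESeq2 both were lost as well, at 0.53 (adjusted p = 0.261) against α-cells and 0.92 (adjusted p = 0.13) against δ-cells. In all, 5 of 8 genes were called between β- and α-cells, where 30% of 12709 genes were (17.2% higher, 12.8% lower), and 6 of 8 between β- and δ-cells, where 22.2% of 13641 were (12.5% higher, 9.65% lower). Of the 8, Trpm5, Atp2a2 and Atp2a3 held their calls and direction under both scales in both comparisons.

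**Figure D4:**
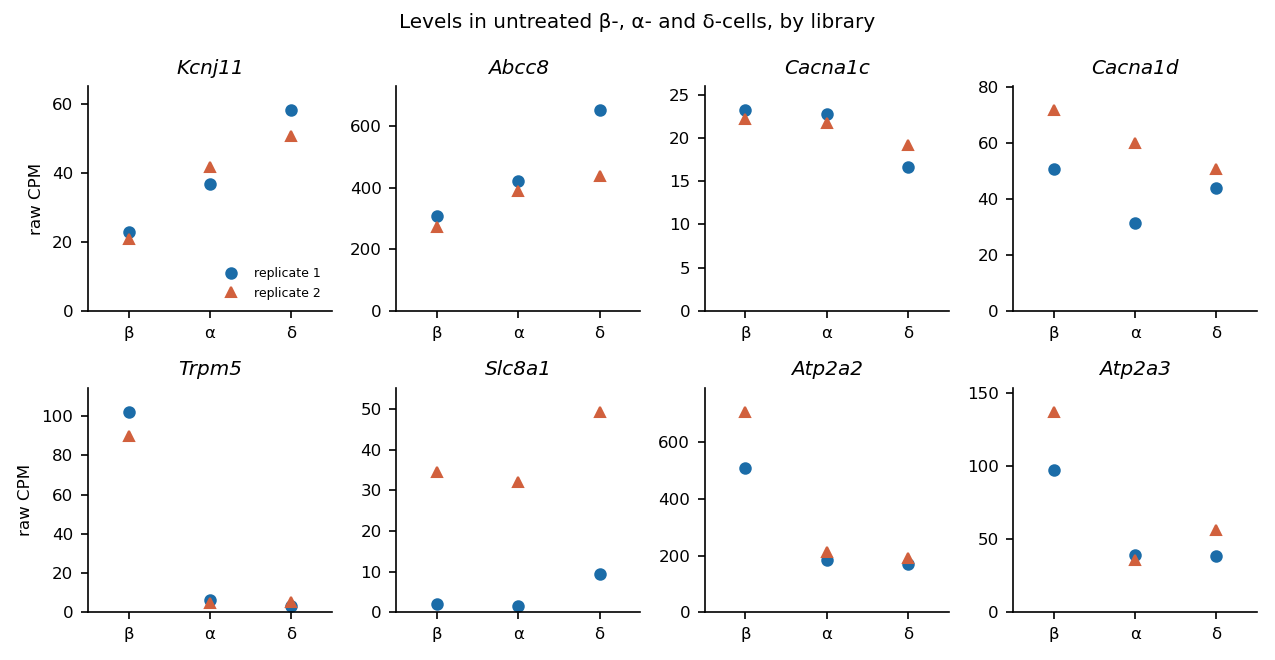
Raw CPM of 8 genes in untreated β-, α- and δ-cells on the x axis, with a circle for replicate 1 and a triangle for replicate 2. Trpm5, Atp2a2 and Atp2a3 are highest in β-cells, Kcnj11 and Abcc8 are highest in the δ class, and Slc8a1 differs more between replicates than between classes.

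The cytokine change itself was compared between the classes. For Atp2a2 the log2 change was lower in β- than in α-cells by 0.95 (difference -0.95, SE 0.21, edgeR adjusted p = 0.00227), the 1 gene of 8 called where 4.12% of all genes were, 1.69% higher and 2.43% lower. It was not called without the library block (-0.96, adjusted p = 0.142), without cytokines replicate 2 (-0.86, 0.0534) or without untreated replicate 2 (-0.87, 0.0796), and by total UMIs it was smaller (-0.61, 0.0342). For Trpm5 the difference was -2.34 (SE 0.96, adjusted p = 0.28), on 15 and 7 UMIs in the α-cell libraries with cytokines. It was called without cytokines replicate 2 (-3.25, adjusted p = 0.00222), without replicate 1 or 2 of cytokines and NMMA (-2.34 and -2.33, adjusted p = 0.000222 and 0.000246) and with no filter on low counts (-2.34, adjusted p = 0.000301). In the α-cell sums β-cell markers summed to 19140 to 20420 raw CPM untreated and 51890 to 53820 with cytokines. Their part in the α-cell values of Trpm5 was not tested. For Abcc8 the change was higher, that is less negative, in β- than in δ-cells by 1.09 (SE 0.33, edgeR adjusted p = 0.0325), the 1 gene of 8 called where 3.2% of all genes were (1.83% higher, 1.38% lower), but the median of all genes in that fit was already 0.336 and total scaling took the value to 0.64 (adjusted p = 0.305). It was also lost without either untreated library (1.02 and 1.125, adjusted p = 0.139 and 0.0858) or either library with cytokines and NMMA (1.08 and 1.08, adjusted p = 0.0842 and 0.0887).

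Around these genes stand the other parts of β-cell excitability, taken from 10 lists of 124 genes. Of these, 89 could be tested in β-cells, and with cytokines 38 fell and 11 rose, where 22.5% of all genes fell and 23.7% rose, with a median log2 change of -0.53 beside 0.00141 for all genes. With the replicate block 46 fell and 19 rose, in a fit that called 62.8% of all genes. By total UMIs 45 fell and 8 rose, a scaling that moved the median of all genes by -0.22. The median was below 0 in 8 of the 9 lists that had tested genes, and above 0 for mitochondrial calcium uptake.

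Of 9 voltage-gated calcium channel subunits tested, 5 fell and 0 rose. Cacna1a (-1.39, SE 0.20) and Cacna1b (-1.21, SE 0.27), which encode the pores of P/Q- and N-type channels, fell beside the auxiliary subunits Cacna2d1 (-1.16, SE 0.15) and Cacnb3 (-0.62, SE 0.15). Of 16 potassium channel genes 10 fell and 1 rose. Kcnk16, which encodes the background channel TALK-1 of β-cells, was at 85.4 and 59.5 normalised CPM untreated and 13.7 and 11.9 with cytokines (-2.50, SE 0.19, edgeR adjusted p = 2.19e-05). Kcnma1, which encodes the BK channel opened by calcium and voltage, went from 32.0 and 28.9 to 8.28 and 8.34 (-1.88, SE 0.13, edgeR adjusted p = 1.4e-05). Kcnmb2 (-1.45, SE 0.16), a BK subunit, fell as well.

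Of 14 sodium and other depolarizing channel genes 6 fell and 1 rose, with Nalcn, the sodium leak channel (-2.14, SE 0.24), Hcn2 (-1.32, SE 0.19), Trpm2 (-1.39, SE 0.27) and Scn3a (-0.82, SE 0.23) among those that fell. Of 6 sodium-potassium pump genes 5 fell and 0 rose. Atp1b1 (-1.25, SE 0.13), Atp1b2 (-1.38, SE 0.26) and Atp1b3 (-0.89, SE 0.16) were among those that fell and encode β-subunits of the pump. Of 7 chloride and volume channel genes 2 fell, the chloride transporters Slc12a5 (-1.56, SE 0.29) and Slc12a2 (-0.99, SE 0.22).

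The SERCA genes were not the only calcium pumps that fell. Of 6 other pump and exchanger genes tested 3 fell and 1 rose. Atp2b2 and Atp2b4, which encode calcium pumps of the plasma membrane, fell by 2.27 (SE 0.19, adjusted p = 3.25e-05 by edgeR) and 2.003 on the log2 scale (SE 0.17, adjusted p = 4.73e-05 by edgeR). Slc8a2, a sodium-calcium exchanger like Slc8a1, also fell (-1.48, SE 0.43), while Atp2c1, the calcium pump of the Golgi apparatus, rose by 0.59 (SE 0.14) but not by total UMIs, where 0 of 6 rose and 4 fell.

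Genes of calcium release and store-operated entry went both ways, with 4 of 11 lower and 3 higher. Itpr1 (-1.47, SE 0.21) and Itpr2 (-2.35, SE 0.36), the inositol trisphosphate receptors, and Stim1 (-1.17, SE 0.16), which senses calcium in the endoplasmic reticulum, fell. Orai2, a subunit of the entry channel that STIM proteins open, rose from 6.08 and 5.80 to 21.5 and 16.6 normalised CPM (1.69, SE 0.19, edgeR adjusted p = 0.000195). Of 8 genes of mitochondrial calcium uptake 3 rose and 0 fell, with Mcub (1.40, SE 0.21) and Vdac1 (0.52, SE 0.13) among those that rose, and by total UMIs 2 rose and 1 fell. Of 12 calcium-binding and calcium-signal genes 3 fell and 2 rose, with Scgn (-1.43, SE 0.14) and Camk2b (-1.11, SE 0.14) lower and Sri (0.88, SE 0.13) and Calr (0.63, SE 0.14) higher.

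**Figure D5:**
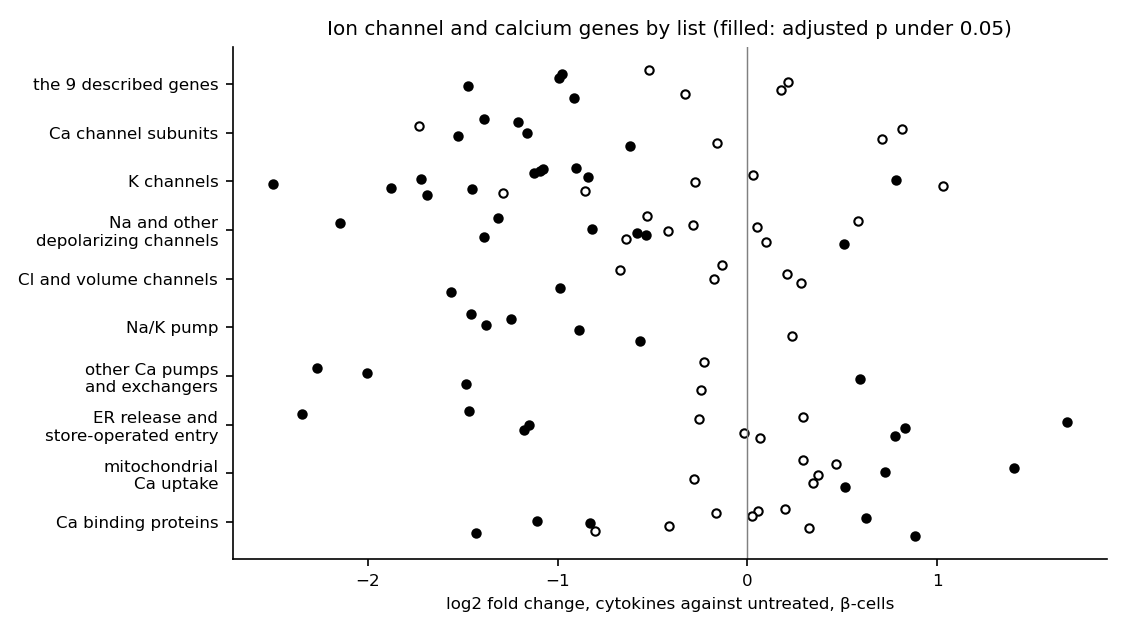
Log2 fold change with cytokines against untreated in β-cells on the x axis, with 1 point per gene and a row for each list, filled where the edgeR adjusted p was under 0.05. Most filled points of the channel, pump and exchanger lists lie left of 0, while those of mitochondrial calcium uptake lie right of 0.

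When NMMA was added to cytokines, 19 of the 89 genes rose and 2 fell in β-cells, where 10.4% of all genes rose and 9.03% fell, with a median log2 change of 0.18 beside 0.0155 for all genes, and with the block 35 rose and 11 fell, where 40.7% of all genes were called. Atp2b4 (1.45, edgeR adjusted p = 0.00241), Atp2b2 (1.30, edgeR adjusted p = 0.00386) and Kcnma1 (0.89, edgeR adjusted p = 0.00371) rose, and Orai2 fell (-0.96, edgeR adjusted p = 0.0114). The other gene that fell was Trpm7 (-0.90, edgeR adjusted p = 0.0105), named after its value was seen. Cacna1a (0.73), Cacna1b (0.94) and Cacna2d1 (0.76) rose as well. Kcnk16 was at 16.9 and 15.9 normalised CPM with NMMA added, next to its values with cytokines alone (0.36, edgeR adjusted p = 0.206). With NMMA alone 0 of the 89 were called, where 0 of all genes were, and with the block 4 were, where 3.48% of all genes were.

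Over the 8 β-cell sums, the gene most like each of the 8 by Pearson's r of log2 CPM was named among 4649 genes with a mean of at least 20 CPM. It was Mia3 for Cacna1d (r = 0.997), Spock2 for Atp2a2 (0.991), Rab4b for Slc8a1 (0.987), Tmem127 for Atp2a3 (0.985), Creb3l1 for Cacna1c (0.969), Dhps for Kcnj11 (0.968), Ptpa for Abcc8 (0.964) and 2410021H03Rik for Trpm5 (0.954). Among the 8 themselves, Cacna1d, Atp2a2 and Atp2a3 followed one another, with r of 0.92 to 0.97, and Trpm5 ran against Cacna1c (-0.912). These values describe 8 sums that share pools, conditions and depth.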

How the data were processed

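Islet cells were profiled by 3′ single-cell RNA sequencing in 8 libraries, 1 for each of 4 conditions in 2 replicates. The deposited matrices hold raw UMI counts per gene and barcode, which the authors made with Cell Ranger (3.0.0 in the headers of replicate 1 and 6.0.0 in those of replicate 2) on mm10. The sample labels and the study's methods name different versions of the 3′ kit. Groups were taken from the sample labels, and the libraries of a replicate number share a pool of islets.

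Barcodes with at least 200 genes, at most 5500 (replicate 1) or 6500 (replicate 2) genes and at most 10% mitochondrial UMIs were kept. Cells were clustered with scanpy 1.11.5 (2000 variable genes without 133 listed genes, 30 principal components, 20 neighbours, Leiden resolution 1) into 24 clusters and 10 of a second round, and clusters were named from marker genes, since no deposited annotation was used. Scrublet's own threshold called 99 doublets. They were kept, and leaving out the 200 cells of the assumed doublet share was an alternative. Pairs of libraries shared 0 to 5 barcode sequences.

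UMI counts were summed per class and library, and sums of under 10 cells were left out. Conditions were compared within a class in 1 edgeR 4.0.16 quasi-likelihood fit over all 4 conditions (R 4.3.3, TMM scaling, filter on low counts, robust). Classes were compared with the library as a block. Every SE is the log2 fold change over the square root of F, and adjusted p-values are Benjamini-Hochberg values across every gene in the fit. The code was tested on simulated data. In the fits without a block, with 2 pools a group, p-values measure the spread between these pools. Where the library or the replicate number is a block, that difference is taken out, and p-values measure the spread that remains. The estimate of the spread is shared over all 4 conditions, and the δ group with cytokines, 1 library, has none of its own. Intervals and limits for a count of 0 (3 counts) cover counting error only.

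Deviations of same-numbered libraries from their group means correlated at 0.598 to 0.688 in β-cells, 0.249 to 0.439 in α-cells and 0.275 to 0.337 in δ-cells. Libraries of a replicate number thus share part of their deviation. That number also goes with the Cell Ranger version, so a shared pool and shared processing cannot be told apart here. The fit with the replicate block is given where it changes a call. Other alternatives were DESeq2 1.42.0, scaling by total UMIs, no filter on low counts, cells of at least 7000 UMIs, sums of at least 5 cells, clustering with the listed genes, no library block, each library left out and, chosen after seeing the data, hormone genes left out of the sums.

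The 9 genes, the other lists and the tests were chosen with earlier results of these data known. Named are all 9, from each other list up to 4 genes with the smallest adjusted p among those called in β-cells with cytokines, and for each of the 9 the gene most like it over the β-cell sums. Some genes that this rule names are not reported here. Trpm7 was named after its value was seen. Promoters came from RefSeq and gene positions from the GENCODE annotation of GRCm38.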

Additional observations from a re-analysis of the deposited data

Results flagged for a closer look

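The change with cytokines differed between cell types for 2 of the genes, by the interaction of class and condition in edgeR, where 4.12% of all genes were called between β- and α-cells and 3.2% between β- and δ-cells. For Atp2a2 the log2 change in β-cells was -0.98 and in α-cells -0.11 in the fits within each class, and the difference was -0.95 (SE 0.21, edgeR adjusted p = 0.00227). It was called under 14 of 17 alternatives and was -0.61 by total UMIs, where the α-cell value was -0.57. For Abcc8 the log2 change was -0.52 in β-cells and -1.74 in the δ class, where the cytokine group is 1 library of 12 cells, and the difference was 1.09 (SE 0.33, edgeR adjusted p = 0.0325). It was called under 8 of 16 alternatives, and was not called by DESeq2 (0.97, adjusted p = 0.476), without the library block (1.09, 0.226) or by total UMIs (0.64, 0.305). With 1 or 2 libraries a group, single libraries could not be checked for standing apart within their group.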

How the results depend on the processing

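Of 2137 alternatives to 127 values of single genes, 2022 kept their side of the threshold, 69 lost a call, 45 gained one and 1 reversed. Among those that kept their side, 66 were not called and had another sign. The value that reversed was Abcc8 in untreated β- against α-cells, at -0.49 by total UMIs. Of 286 alternatives to 17 counts of genes called, 223 were within 1.5 times and 63 were not. The cause of these shifts was not tested.

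With the replicate block the genes called went from 1 to 2 in α-cells with cytokines, from 1 to 3 when NMMA was added to them and from 0 to 1 for both against untreated. In β-cells the block gave 5 when NMMA was added to cytokines (2 without), 4 for both against untreated (2 without) and 1 with NMMA alone (0 without). The block also added Abcc8 in β-cells with cytokines, where it called 62.8% of all genes in place of 46.1%. In the δ class it gave 1 when NMMA was added to cytokines (0 without) and changed no call beyond those named with their values. Over all genes the block called 40.7% in place of 19.5% in β-cells when NMMA was added to cytokines, 40.9% in place of 22.6% for both against untreated and 3.48% in place of 0 with NMMA alone. In α-cells these were 19.4% in place of 11.1%, 13.8% in place of 8.5% and 0.0307% in place of 0, and in the δ class 5.04% in place of 2.68%, 15.7% in place of 8.86% and 0.0419% in place of 0.

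DESeq2 called 4 of the genes when NMMA was added to cytokines in β-cells, 1 for both against untreated and 1 with NMMA alone. Of all genes it called 18.1%, 19.3% and 0.344% there. It called 0 in α-cells when NMMA was added to cytokines, 0 in the δ class for both against untreated, 0 between untreated α- and δ-cells and 0 for the β and δ difference in the cytokine change. In that order it called 10.1%, 3.34%, 3.67% and 1.08% of all genes. Scaling by total UMIs gave 3 in α-cells with cytokines, 2 there when NMMA was added, 1 in β-cells for both against untreated, 0 in the δ class for both against untreated, 2 for the β and α difference and 0 for the β and δ difference. With no filter on low counts there were 2 in α-cells with cytokines and 4 when NMMA was added, 4 in β-cells when NMMA was added to cytokines and 1 with NMMA alone, 2 for the β and α difference and 0 for the β and δ difference. Without the library block there were 0 for both differences and 0 between untreated α- and δ-cells. That last count was also 0 with cells of at least 7000 UMIs, with sums of at least 5 cells and with hormone genes left out, and sums of at least 5 cells gave 1 in the δ class for cytokines and NMMA against untreated. Over all genes, DESeq2 called 187 in place of 524 for the β and α difference, 125 in place of 437 for the β and δ difference, and 1207 in place of 2127, 547 in place of 1083 and 514 in place of 830 in α-cells with cytokines, with NMMA added and for both against untreated. In the δ class these were 249 in place of 605, 87 in place of 256 and 319 in place of 847, and between untreated classes 377 in place of 1288 (α against δ), 2268 in place of 3809 (β against α) and 1496 in place of 3027 (β against δ). Total UMIs gave 1123 for the β and α difference, 1792 in α-cells when NMMA was added, 5889 for β against α and 5256 for β against δ. Without the library block there were 97, 157 and 783 for the β and α difference, the β and δ difference and untreated α against δ. With NMMA alone, no filter gave 125 in β-cells and 3 in α-cells, and in the δ class with NMMA added to cytokines no filter gave 457 and sums of at least 5 cells 44. Outside the fits that leave out a library, counts over all genes that are not named were within 1.5 times of those of the main fit.

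Leaving out 1 library at a time gave 4 to 5 genes in β-cells with cytokines, 0 to 2 when NMMA was added, 1 to 2 for both against untreated and 0 to 0 with NMMA alone. In α-cells the ranges were 0 to 1, 0 to 2, 0 to 0 and 0 to 0 in the same order, and in the δ class 1 to 1, 0 to 0, 0 to 2 and 0 to 0. Between untreated classes they were 4 to 6 for β- against α-cells, 4 to 6 for β- against δ-cells and 0 to 1 for α- against δ-cells, and for the differences in the cytokine change 0 to 2 (β and α) and 0 to 1 (β and δ). Without cytokines replicate 2 the δ class has no cytokine library, so no value could be had there. Depth limits Ryr2 in every class, Trpm5 outside β-cells and all of the δ class with cytokines.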

Other observations

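In α-cells, 7 of the 74 other channel and calcium genes tested rose with cytokines and 14 fell, where 12.9% of all genes rose and 8.85% fell, with a median log2 change of -0.48 beside -0.0359 for all genes, and with the replicate block 8 rose and 21 fell, where 29.6% of all genes were called. When NMMA was added to cytokines, 3 rose and 1 fell, where 5.48% of all genes rose and 5.61% fell. In the δ class 0 of 77 rose and 5 fell with cytokines, on 1 library, where 4.54% of all genes rose and 1.79% fell. Between untreated β- and α-cells, 28 of 92 of these genes were higher in β-cells and 15 lower, where 17.2% of all genes were higher and 12.8% lower, with a median log2 difference of 0.113 beside 0.0267 for all genes.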
